A study of Mus musculus with 3 samples.

Results

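The genes of oxidative phosphorylation (OXPHOS) encoded in the nucleus were followed in mouse embryonic fibroblast (MEF) cells with and without n-butylidenephthalide (BP). Members were all genes whose name on the arrays starts with Ndufa, Ndufb, Ndufc, Ndufs, Ndufv, Uqcr, Cox4, Cox5, Cox6, Cox7, Cox8 or Atp5, together with Sdha, Sdhb, Sdhc and Sdhd. The choice used names only and no measured value. It gave 90 of the 35287 gene names that had a value on each array, measured by 124 probes. Of these, 83 were structural subunits and 7 were not. The 7 were the complex I assembly factors Ndufaf1 to Ndufaf4, and Atp5s, Atp5sl and Cox4nb, which were taken in by name. By the array's flags 87 members were well above background on all 3 arrays, Cox8b and Cox8c on the control array only, and Cox7b2 on none.

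MEF cells are primary cells grown from minced mid-gestation embryos of C57BL/6 mice after removal of head, legs and internal organs, so a culture can hold several cell types. BP is a small molecule from the herb Angelica sinensis, kept as a stock in DMSO. The groups were MEF for which the labels record no treatment (control), MEF with 10 µg/ml BP (BP10) and MEF with 40 µg/ml BP (BP40), with 1 single-colour Agilent array each. The study's text calls the control DMSO, so whether it received the solvent is not settled by these sources. The time in BP is not given in the sources used here.

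OXPHOS is the last stage of respiration in the inner mitochondrial membrane. Complex I (NADH dehydrogenase) and complex II (succinate dehydrogenase) pass electrons to ubiquinone, complex III (cytochrome bc1) passes them on to cytochrome c, and complex IV (cytochrome c oxidase) to oxygen. Complexes I, III and IV pump protons, and complex V (ATP synthase) lets the protons back and makes ATP. Some subunits of complex IV have a common form and a second form known from muscle, lung, testis or cells short of oxygen.

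Because each condition had 1 array, there was no spread between cultures, no test could be made, and every ratio compares a pair of arrays. A level is the log2 signal of a gene minus the 75th percentile of its array, so a level of 0 is that percentile, and a ratio is the difference of levels on the log2 scale. Ratios were read against the spread of spots and probes within these arrays, which does not measure error between arrays. The probe of Uqcrc2, printed 10 times, had an SD of log2 signal of 0.18 on control, 0.07 on BP10 and 0.09 on BP40. For the 26 members with several probes, the median SD of the ratio between probes of a gene was 0.21 for BP10 and 0.19 for BP40, both against control, and 0.11 for BP40 against BP10. A level says nothing of the order of transcript amounts between genes, since each probe has its own response. In bulk RNA, fewer cells of a type and less RNA per cell cannot be told apart.

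The arrays carried 59305 gene spots each, of which 81.7% were well above background on control, 68.3% on BP10 and 69.1% on BP40, and none was saturated. The control array was scanned in a session of its own and the BP10 and BP40 arrays together, so in a ratio against control the session and the effect of BP cannot be told apart. The scanner software had also divided the signals of both BP arrays by a fitted spatial surface, which ran from 0.66 to 1.11 on BP10, and had not done so on control. The label was checked against markers, and all 12 fibroblast markers of the list were well above background on each array, with median levels of 6.80, 6.36 and 5.96 on control, BP10 and BP40. Markers of other cells were present as well. Of 9 macrophage markers all were above background on each array, with log2 summed levels of 5.24, 4.96 and 5.14. Of 5 epithelial markers 3 were, and Epcam and Cdh1, the defining members, were not above background on any array. Of 5 endothelial markers 4 were above background, without Cdh5, and of 5 adipocyte markers 4 were on control and 3 on the BP arrays, without Ucp1. All 3 neural markers were above background. Of 12 muscle markers all were on control, 11 on BP10 and 10 on BP40.

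The OXPHOS genes were higher on the BP40 array than on the BP10 array in almost every case. The median ratio over the 90 members was 0.44, and 85 of 90 were higher on BP40 (94.4%), against 58.1% of all genes. The median of all genes in that comparison was 0.06. Against control, the members lay lower on BP10 and higher on BP40: the median ratio was -0.24 on BP10, with 13 of 90 higher, and 0.22 on BP40, with 76 of 90 higher. The share of all genes that were higher was 34.8% on BP10 and 42.3% on BP40. Among the 703 genes of like level, defined in the next paragraph, it was 30.4% on BP10 and 57.5% on BP40. The sign for BP10 depended on the scaling, since centring each array on its median signal turned the member median to 0.09 and moved the median of all genes from -0.23 to 0.10. These 3 comparisons share arrays, so a low value on BP10 enters 2 of them.

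The most frequent order of the arrays was BP40 above control above BP10, found in 64 of the 90 members. Another 11 members had control highest and BP10 lowest, and 10 were highest on BP40 and lowest on control. Other orders were those of Ndufaf4 (BP10, BP40, control), Atp5o and Cox8c (control, BP10, BP40) and Cox4nb (BP10, control, BP40), of which Cox8c rests on signals below background. Among 703 other genes of like level, those between the lower and upper quartile of the common subunits' mean level (4.87 to 5.87), the leading order had 33.0% of the genes and control above BP40 above BP10 had 26.2%.

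**Figure D1:**
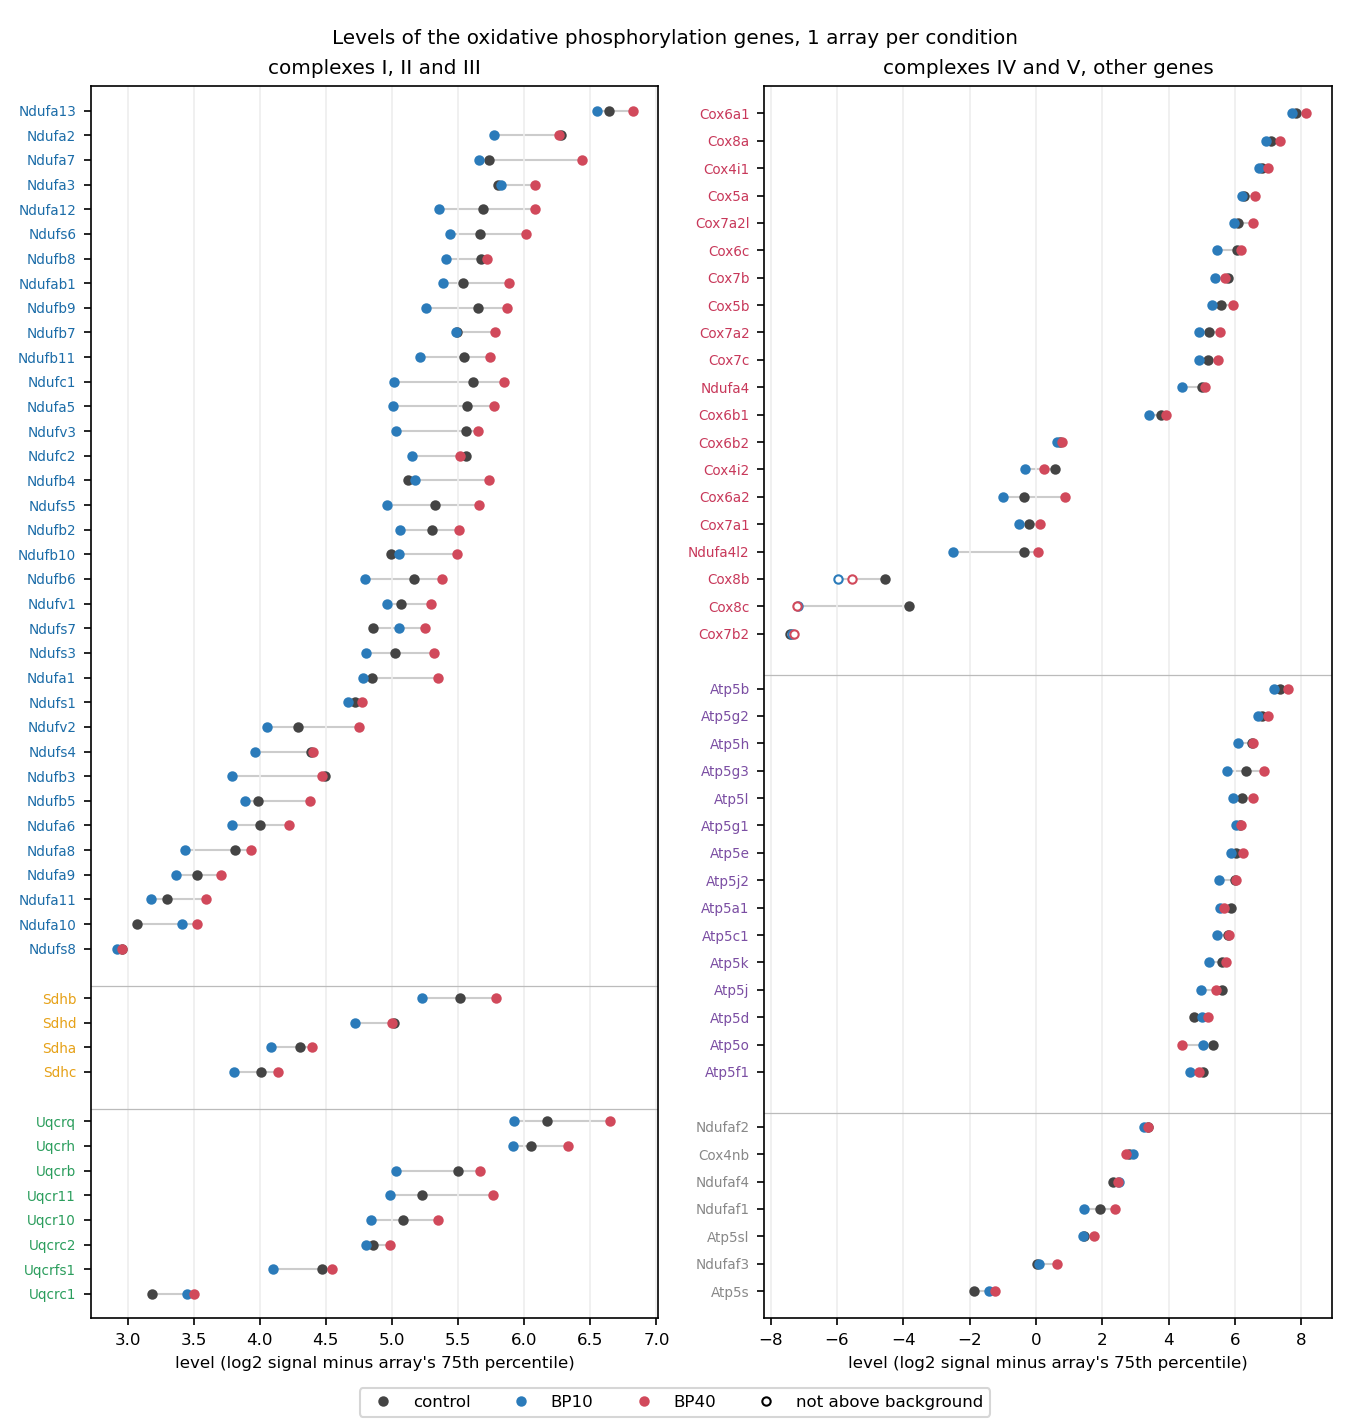
Levels of the members on the control, BP10 and BP40 arrays (x axis, log2 signal minus the array's 75th percentile, with a separate scale in each panel), sorted within each complex by mean level; open circles are signals not well above background. In 64 members the BP40 point lies to the right and the BP10 point to the left of the control point.

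The changes were small beside the 2-fold threshold (a log2 ratio of 1, where either array compared had the probe above background). On BP10 against control no member was called up, against 2.68% of all genes, and 2 were called down, against 10.3%. On BP40 against control 1 member was called up, against 2.59%, and 1 down, against 9.02%. On BP40 against BP10, 3 members were called up, against 1.88% of all genes, and none down, against 1.78%. At 1.5-fold, BP40 against BP10 had 23 of 90 members up, against 7.8% of all genes, and 1 down, against 5.52%. In the 703 genes of like level that threshold gave 62 up and 18 down. The member called down at 1.5-fold was Atp5o.

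Most members had bright signals, and bright genes as a class were higher on BP40 than on BP10. Of 20 classes of genes by mean level, the brightest had a median BP40 against BP10 ratio of 0.28 and held 55 members. The 703 genes of like level had a median of 0.20, and 76.8% of them were higher on BP40. The median of its level class was then taken from each ratio, which gave the ratio over genes of like level. The member median for BP40 against BP10 was then 0.22, with 73 of 90 above 0. For BP10 against control it was -0.08, with 33 of 90 above 0, and for BP40 against control 0.14, with 68 of 90 above 0.

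**Figure D2:**
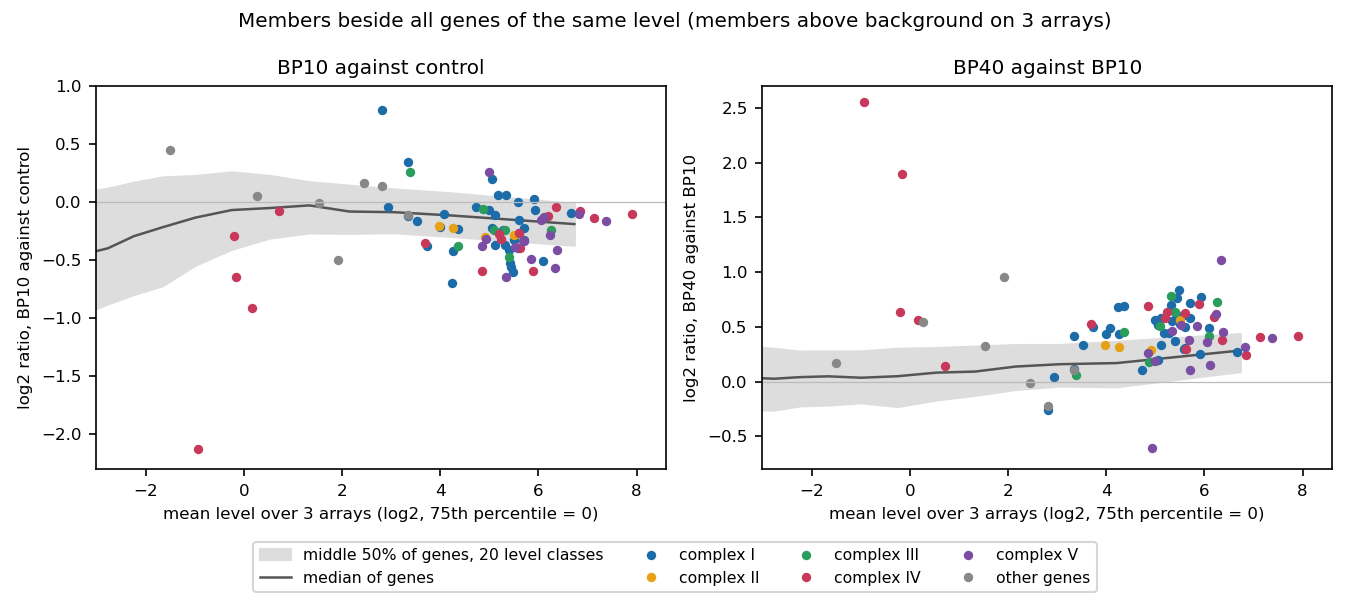
Ratio of each member above background on 3 arrays (y axis, log2) against its mean level (x axis), beside the median (line) and middle 50% (grey) of all genes in 20 level classes. Most members lie above the line for BP40 against BP10 on the right, while for BP10 against control, on the left, they scatter around and below it.

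By complex, the median ratios on BP10, BP40 and between the BP arrays differed little among complexes I, III and IV. Complex I (36 genes) had medians of -0.22 on BP10, 0.23 on BP40 and 0.49 for BP40 against BP10. Complex III (8 genes) had -0.24, 0.27 and 0.48. Complex IV (20 genes) had -0.30, 0.22 and 0.54. Complex II (4 genes) and complex V (15 genes) were the least raised on BP40 against control. Complex II had -0.25, 0.11 and 0.32, and complex V had -0.33, 0.04 and 0.38. The BP40 median of complex V turned below 0 over genes of like level, at -0.030 with 7 of 15 genes above 0, and with the percentile taken over probes above background on all arrays, at -0.032. Over genes of like level, BP40 against BP10 left 0.31 for complex IV, 0.25 for complexes I and III, 0.15 for complex II and 0.10 for complex V. With medians centred instead of 75th percentiles, the BP10 medians of complexes I to IV were above 0, at 0.11, 0.08, 0.09 and 0.03, and that of complex V was -0.0020.

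**Figure D3:**
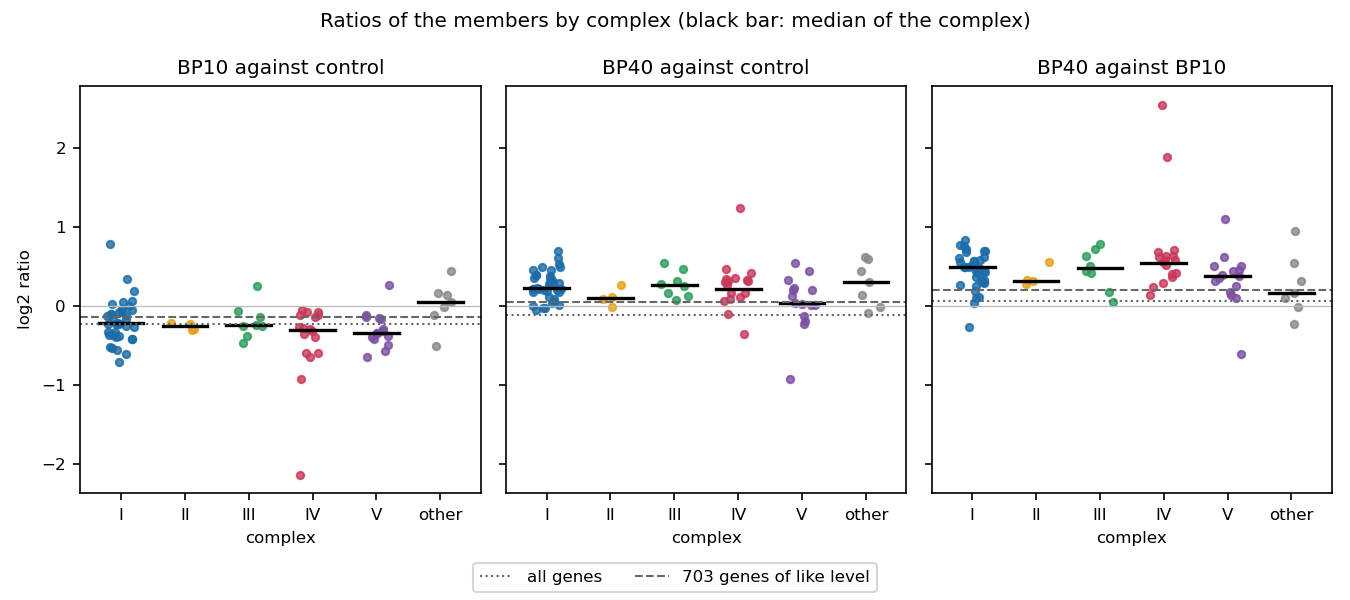
Log2 ratio of each member above background on both arrays compared, by complex (x axis), with the median over all genes of the complex as a black bar; the dotted and dashed lines are the medians of all genes and of the 703 genes of like level. Between the BP arrays the complex medians run from 0.32 to 0.54, above both lines, while the genes outside the complexes have 0.17.

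In complex I the core subunits carry the flavin and the iron-sulfur clusters, and the accessory subunits surround and stabilize them. The 7 core subunits had a median BP40 against BP10 ratio of 0.20 and the 29 accessory subunits 0.50. All 29 were higher on BP40, as were 76.8% of the 703 genes of like level. No test of the difference between core and accessory subunits was possible, and their ranges overlapped. The core subunits Ndufv2 and Ndufs3 had ratios of 0.69 and 0.52, and the accessory subunits ran from 0.11 to 0.83. Core subunits were also dimmer, with a median mean level of 4.72 against 5.41. Ndufv2, which binds an iron-sulfur cluster of the NADH-oxidizing arm, had levels of 4.29, 4.06 and 4.75 and was highest on BP40. The core subunits Ndufs1 and Ndufs8 differed by 0.10 and 0.04 between the BP arrays, less than the spread between probes.

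Among the accessory subunits, those with the highest mean ratio to control were Ndufa10 and Ndufb4. Ndufa10 had levels of 3.07, 3.41 and 3.53 on control, BP10 and BP40, and was lowest on control. Ndufb4 had 5.12, 5.18 and 5.73 and stood apart on BP40 only, although its second probe gave -0.49 and 0.06 against control where the first gave 0.06 and 0.61. The lowest were Ndufb3, Ndufa2 and Ndufc2. Ndufb3 had levels of 4.49, 3.79 and 4.47, Ndufa2 6.28, 5.77 and 6.26, and Ndufc2 5.56, 5.15 and 5.52. In all 3 the BP10 array was low, and the ratios on BP40 against control were -0.02, -0.02 and -0.05. The highest signal of the complex came from Ndufa13, also known as a cell death regulator, with levels of 6.64, 6.55 and 6.82. The differences between the BP arrays reached 0.83 in Ndufc1, with levels of 5.61, 5.01 and 5.85, a gene of the membrane arm.

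Some members with several probes were not given the same ratio by each probe. For BP40 against BP10 the brighter probes of Ndufa3, Ndufab1 and Ndufb5 gave 0.25, 0.50 and 0.49, and the dimmer ones -0.19, -0.19 and -0.15. The third and dimmest probe of Ndufb11 gave -0.04, where the others gave 0.52 and 0.42. With the median over a gene's probes in place of the brightest, 85 of 90 members were still higher on BP40 than on BP10.

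By the brightest probe of each, all 4 subunits of complex II, the enzyme that also belongs to the citric acid cycle, were lower on BP10 than on control and higher on BP40 than on BP10. Of the 703 genes of like level, 30.4% were higher on BP10 than on control and 76.8% on BP40 than on BP10. The flavoprotein Sdha had levels of 4.31, 4.08 and 4.40 on control, BP10 and BP40. The iron-sulfur subunit Sdhb had 5.51, 5.23 and 5.79. The membrane anchors Sdhc and Sdhd had 4.01, 3.80 and 4.13, and 5.02, 4.72 and 5.00. Only Sdhb exceeded control on BP40 by more than the spread between probes, with a ratio of 0.27. Its dimmer probe gave 0.07 on BP10 and 0.52 on BP40. The dimmer probe of Sdhc gave 0.30 on BP10 against control, where the brighter gave -0.21, and 0.02 between the BP arrays, where the brighter gave 0.33, so for Sdhb and Sdhc the place below control on BP10 rests on the probe used.

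In complex III all 8 subunits were higher on BP40 than on either other array. Among the 703 genes of like level, 57.5% were higher on BP40 than on control and 76.8% than on BP10. Uqcr11 and Uqcrq, small subunits, were the most raised: Uqcr11 had levels of 5.22, 4.98 and 5.77, and Uqcrq, the highest signal of the complex, 6.17, 5.93 and 6.65. The core protein Uqcrc1 followed another order, with 3.19, 3.45 and 3.51, and was lowest on control. Uqcrfs1, the Rieske iron-sulfur protein, had 4.47, 4.10 and 4.55, Uqcrb 5.50, 5.03 and 5.67, and Uqcr10 5.08, 4.84 and 5.35. These 3 had the lowest mean ratio to control and were low on BP10.

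Complex IV had 12 common subunits. By the brightest probe of each, all 12 were lower on BP10 than on control, 11 were higher on BP40 than on control, and all 12 were higher on BP40 than on BP10, with a median of 0.55 and a range of 0.24 to 0.71. Cox7b was the one below control on BP40, with levels of 5.79, 5.39 and 5.69. Bright genes in general moved the same way. Of the 703 genes of like level, 30.4% were higher on BP10 and 57.5% on BP40 than on control, and 76.8% on BP40 than on BP10. Cox6a1, the highest signal, had 7.84, 7.73 and 8.15. Cox4i1, a subunit through which ATP inhibits the enzyme, had 6.82, 6.74 and 6.98, and its BP40 against BP10 ratio of 0.24 was the smallest of the 12. Cox5a had 6.27, 6.23 and 6.60, and Cox7a2l, known for its part in respiratory supercomplexes, 6.08, 5.96 and 6.55. Both were among the highest in mean ratio to control. Cox6c had 6.06, 5.46 and 6.17, a ratio of 0.71 between the BP arrays. Probes disagreed in sign in Cox8a and Cox7a2l on BP10 against control. The second probe of Cox8a gave 0.37, where the first gave -0.14, and the dimmest of Cox7a2l 0.28, where the others gave -0.12 and -0.15. In Cox7c they disagreed in size, with -0.28 by the brightest probe and -0.75 and -1.02 by the others. On BP40 against control the same probes of Cox7c gave 0.31, 0.11 and -0.29.

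The second isoforms of complex IV held the largest ratios between the BP arrays of all members, at levels near or below 0. Ndufa4l2, a relative of the complex IV subunit Ndufa4 known as a gene raised in hypoxia, had unscaled signals of 1354 on control, 249 on BP10 and 1264 on BP40, and levels of -0.36, -2.49 and 0.06. It was low on BP10, and control and BP40 were 0.42 apart. The scaled signal was 4.38-fold lower on BP10 than on control and 5.87-fold higher on BP40 than on BP10. Ndufa4 itself had levels of 5.01, 4.42 and 5.11, the same order with a BP40 against BP10 ratio of 0.69 in place of 2.55. The Ndufa4l2 probe, at chr10:126954149-126954208 (mm9), is the one probe of that gene.

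Cox6a2, the heart and skeletal muscle form of Cox6a, had signals of 1355, 697 and 2241 and levels of -0.36, -1.01 and 0.88. It was highest on BP40, 2.38-fold above control and 3.71-fold above BP10, where Cox6a1 was 1.24-fold and 1.34-fold higher. With the normexp background correction its ratio on BP40 against control was 0.89, and with no array detrended 0.93, both under the threshold. The normexp signals were not detrended either, so these are not separate checks. The other muscle forms were not called up. Cox7a1 had levels of -0.22, -0.52 and 0.12, and its ratios of -0.29 and 0.35 to control were close to those of the common form Cox7a2, -0.32 and 0.32. Cox8b was above background on control only, at -4.54, and was at least 1.44-fold lower on BP10 and at least 1.43-fold lower on BP40. The bound takes the dim array at the lowest signal there well above background, or at the probe's own signal where that is higher. Of 12 muscle markers, 5 were higher on BP40 than on BP10, with a median ratio of -0.12, and 8 were lower on BP40 than on control, with a median of -0.43. Their log2 summed level, which the brightest markers weigh most in, was 4.08, 4.14 and 4.17. Ckm, the muscle creatine kinase, was above background on control and BP10 only. The part of muscle-like cells in the Cox6a2 value was not tested.

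Cox4i2, the lung form of Cox4, had levels of 0.59, -0.33 and 0.24, and was lower than control on both BP arrays. Its ratio on BP10 was -0.91, or -1.01 with the normexp correction, -1.05 with no array detrended and -0.58 under the median scaling. The ratio on BP40 was -0.35, or 0.00 under the median scaling. The testis forms differed among themselves. Cox6b2 had 0.72, 0.64 and 0.78 with ratios of -0.08 and 0.06 to control, while Cox6b1 had 3.76, 3.41 and 3.93. Cox7b2 was not above background on any array. Cox8c was above background on control only, with a level of -3.84 and a signal of 122, and was at least 2.33-fold lower on BP10 and at least 2.32-fold lower on BP40. With the normexp correction its ratios to control were -0.85 and -0.82, under the threshold. By the brightest probe of each, the common Cox8a, in contrast, had 7.08, 6.94 and 7.35, and Cox7c 5.18, 4.91 and 5.49.

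**Figure D4:**
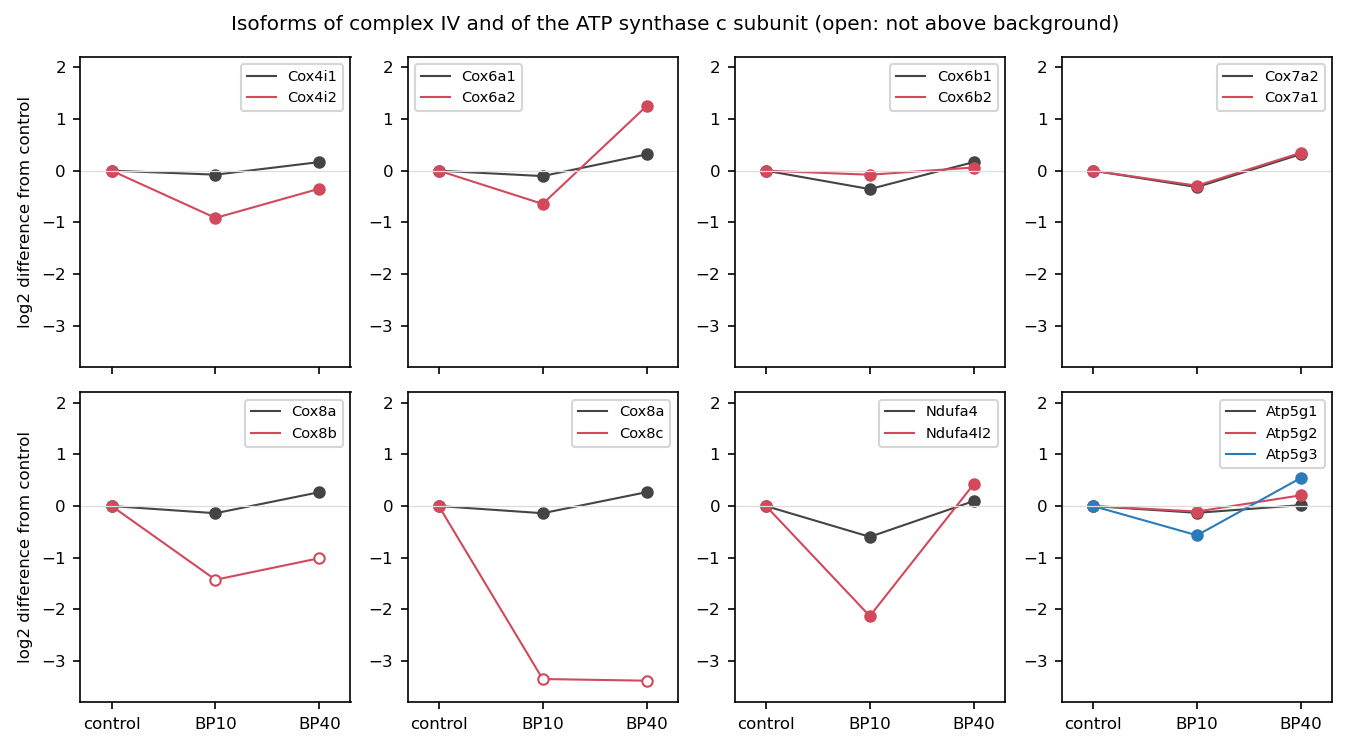
Difference of each isoform from its own control level (y axis, log2) on the 3 arrays (x axis), with the common and the second forms of complex IV subunits and the 3 genes of the ATP synthase c subunit; open circles are not well above background. Ndufa4l2 is furthest below control on BP10 among the genes measured on all arrays, at -2.13, and Cox6a2 is highest on BP40, at 1.25.

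Complex V was split between subunits. By the brightest probe of each, 14 of its 15 genes were lower on BP10 than on control and 14 were higher on BP40 than on BP10. By the same probes 4 were below control on BP40. Bright genes in general moved the same way between the arrays. Over genes of like level, 10 of the 15 were lower on BP10 and 8 on BP40 than on control, and 11 were higher on BP40 than on BP10. Atp5g1, Atp5g2 and Atp5g3 encode the same c subunit, the ring that turns in the membrane, with different targeting peptides. Atp5g3 had levels of 6.34, 5.77 and 6.88, Atp5g1 6.16, 6.03 and 6.18, and Atp5g2 6.80, 6.70 and 7.01. Only Atp5g3 was called, at 2.16-fold higher on BP40 than on BP10, and its BP40 against BP10 ratio of 1.11 was 0.83 under quantile normalization. Its ratio of 0.54 to control was 0.13 with every array detrended. Between the BP arrays Atp5g1 had 0.15 and Atp5g2 0.31. The second probe of Atp5g2 gave 0.42 there, and -0.49 on BP10 and -0.07 on BP40 against control. The first gave -0.11 and 0.21 against control.

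Atp5o was the one gene of the complex lower on BP40 than on BP10. It encodes the stalk subunit that gives the enzyme its oligomycin sensitivity, and its levels were 5.34, 5.02 and 4.41, lowest on BP40, with a ratio of -0.92 to control and -0.61 to BP10. Over the alternatives the BP40 ratio to control ran from -0.58 under median scaling to -1.09, past the threshold, with every array detrended. The BP10 ratio to control, -0.32, was 0.01 under median scaling. Atp5o has 1 probe, at chr16:91925542-91925601 (mm9), so no second probe could bear on it. Atp5j, a coupling factor of the stalk, had 5.62, 4.97 and 5.43. Atp5a1, the alpha subunit of the catalytic head, had 5.89, 5.56 and 5.67. Both genes were below control on both BP arrays, but under median scaling the ratios of Atp5a1 to control were -0.002 and 0.12. Median scaling shifts every gene of an array by the same amount. The place of Atp5j below control on BP40, at -0.18, therefore rested on the scaling too. At the other end Atp5d, of the rotor, had 4.75, 5.02 and 5.20 and was the one member of the complex above control on both BP arrays. Atp5b, the catalytic beta subunit and the highest signal of the complex, had 7.36, 7.19 and 7.59. The 5 genes of the F1 head and rotor had a median of 0.21 on BP40 against control and the 10 of the membrane part and stalk 0.03.

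Atp5g3 and Atp5o are shown with their promoters because they lay at opposite ends of complex V, and Uqcr11 because it led complex III and holds more than one of the motifs searched. Windows came from RefSeq (GRCm38.p6), 250 bases before to 50 after each start, of which 280 bases to 30 after the start are printed, 5′ to 3′ on the gene's strand. The motifs of 3 factors known for nuclear OXPHOS genes were searched on both strands: GCGCANGCG for NRF1, CCGGAAG for ETS factors such as GABPA, and AAGATGGCG for YY1. Capitals mark the NRF1 and ETS letters. The windows lie at chr2:73911297-73911576, chr16:91931601-91931880 and chr10:80406792-80407071, all on the minus strand.
Atp5g3: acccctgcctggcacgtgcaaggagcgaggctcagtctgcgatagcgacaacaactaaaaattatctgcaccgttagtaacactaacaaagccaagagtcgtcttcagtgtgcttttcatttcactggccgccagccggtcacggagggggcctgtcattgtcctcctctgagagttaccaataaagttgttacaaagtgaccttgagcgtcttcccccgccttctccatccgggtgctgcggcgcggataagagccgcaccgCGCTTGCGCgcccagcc
Atp5o: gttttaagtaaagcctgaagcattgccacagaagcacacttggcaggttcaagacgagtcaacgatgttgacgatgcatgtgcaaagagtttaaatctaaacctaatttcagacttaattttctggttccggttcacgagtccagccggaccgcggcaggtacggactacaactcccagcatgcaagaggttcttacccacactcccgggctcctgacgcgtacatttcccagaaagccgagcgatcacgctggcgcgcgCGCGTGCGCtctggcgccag
Uqcr11: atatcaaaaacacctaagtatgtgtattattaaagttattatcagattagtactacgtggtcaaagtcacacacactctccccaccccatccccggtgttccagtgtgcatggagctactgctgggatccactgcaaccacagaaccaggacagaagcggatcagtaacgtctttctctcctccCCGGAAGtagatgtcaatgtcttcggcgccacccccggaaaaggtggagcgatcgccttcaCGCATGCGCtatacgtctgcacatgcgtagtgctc

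The NRF1 letters stood close to the start in Atp5g3 and Atp5o alike, the genes with the highest and the lowest ratio of complex V on BP40 against control. A window was at hand for 74 of the 90 members. NRF1 letters were found in 21 of these (28.4%, against 7.03% of 27025 genes), ETS letters in 17 (23.0%, against 9.93%) and YY1 letters in 8 (10.8%, against 1.64%). By complex, the NRF1 letters were in 7 of 14 windows of complex V and in 1 of 14 of complex IV, that of Cox6a1. The ratios between the BP arrays were close with and without each motif. Among 64 common subunits with a window, the median BP40 against BP10 ratio was 0.45 in 20 with the NRF1 letters and 0.46 in 44 without. It was 0.46 and 0.45 with and without the ETS letters, and 0.46 in 7 with and 0.45 in 57 without the YY1 letters. Against control, those 7 had medians of -0.42 on BP10 and 0.18 on BP40, and the 57 had -0.24 and 0.26. A match of letters is no measured binding, and the windows of Ndufa4l2 and Cox6a2 were not analysed here.

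The genes named like subunits but outside the complexes were mixed. Of the complex I assembly factors, Ndufaf1 had levels of 1.94, 1.44 and 2.39 and was highest on BP40, while Ndufaf2 had 3.38, 3.27 and 3.37, Ndufaf3 0.04, 0.10 and 0.64, and Ndufaf4 2.34, 2.50 and 2.49. Their median BP40 against BP10 ratio was 0.33. The second probe of Ndufaf4, above background on all arrays, gave -0.97 on BP40 against control and -1.07 against BP10, where the first gave 0.15 and -0.01, the widest disagreement between probes among the members.

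The mitochondrial genome encodes further subunits of complexes I, III, IV and V, and 13 probes on it were all above background. Their medians were -0.24 on BP10, 0.08 on BP40 and 0.32 for BP40 against BP10, and 12 of 13 were higher on BP40 than on BP10. ND3, a complex I subunit, had levels of 6.06, 5.36 and 6.15, and COX1, the catalytic subunit of complex IV, 8.45, 8.34 and 8.56. ND4L, with 5.47, 5.61 and 5.54, was the probe lower on BP40 than on BP10. For comparison, the median of all genes on BP10 was -0.23, and the brightest class of genes had 0.28 between the BP arrays.

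Other genes of the pathway came from lists written from general knowledge. No gene of the carriers, the citric acid cycle or the defence list was called at 2-fold in any comparison. The 7 electron carriers and related subunits had medians of -0.06 on BP10, 0.25 on BP40 and 0.14 between the BP arrays. Both ends of the list were genes of ubiquinone synthesis: Coq9 had levels of 0.59, 0.89 and 0.94, and Coq7 2.39, 1.97 and 2.09. The 14 enzymes of the citric acid cycle had -0.12, 0.04 and 0.08, from Suclg1 with 3.59, 4.11 and 4.03 to Idh2 with 5.54, 5.12 and 5.44 on control, BP10 and BP40. The 6 genes of mitochondrial peroxide and superoxide defence had -0.19, -0.01 and 0.19. Txnrd2 had 1.81, 1.83 and 2.34 and was the one clearly higher on BP40, while Prdx5 had 5.23, 5.02 and 4.92.

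The 26 assembly factors on the arrays had medians of -0.08, 0.10 and 0.20, and 1 was called. Cox17, the copper chaperone of complex IV, had levels of -2.41, -3.97 and -3.03, a ratio of -1.56 on BP10. The 14 regulators of mitochondrial biogenesis had -0.15, -0.06 and 0.06, with 8 of 14 higher on BP40 than on BP10 and none called. Polg, the mitochondrial DNA polymerase, had the highest mean ratio to control, with 1.04, 1.59 and 1.26, and the coactivator Pprc1, with -0.91, -1.13 and -1.65, the lowest of those above background on all arrays. Its relative Ppargc1a was above background on 1 array only. The factors of the motifs above, named after their values were seen, had levels of 0.99, 0.78 and 0.69 for Nrf1, 1.13, 1.01 and 0.80 for Gabpa, and 1.95, 1.45 and 1.97 for Yy1.

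Other large complexes were set beside the OXPHOS genes. Their median mean levels were 3.65 for the mitochondrial ribosome, 7.60 for the cytosolic ribosome and 4.55 for the proteasome, against 5.19 for the members. The median of its level class was therefore taken from each ratio. The brightest of the 20 classes ran from 4.89 to 8.58, so levels were matched only loosely there. The same 0.28 was removed at the median level of the members and at that of the cytosolic ribosome. After removing the median of genes of like level, BP40 against BP10 left 0.22 for the 90 members, 0.11 for 76 proteins of the mitochondrial ribosome, 0.08 for 84 of the cytosolic ribosome, 0.02 for 40 of the proteasome and -0.12 for the citric acid cycle. Complex V alone, at 0.10, did not exceed the mitochondrial ribosome. Before that removal, the medians were 0.28, 0.36 and 0.20 for the mitochondrial ribosome, the cytosolic ribosome and the proteasome. In the mitochondrial ribosome no gene was called at 2-fold, and the ends of the list were Mrpl37, with levels of 0.50, 1.35 and 1.01, and Mrps28, with 3.90, 3.62 and 3.34. With 1 array per condition no test of these differences was possible. The fibroblast markers did not follow the members: their median was -0.58 on BP10, -0.54 on BP40 and 0.04 between the BP arrays, while 8 of 9 macrophage markers were higher on BP40 than on BP10, with a median of 0.17. The part of such cells in the result was not tested.

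The direction of BP40 against BP10 held under each processing tried, with a member median of 0.22 to 0.46. That of BP40 against control ran from 0.14 to 0.57. For BP10 against control it ran from -0.26 to 0.09, and the value above 0 came from the median scaling.

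**Figure D5:**
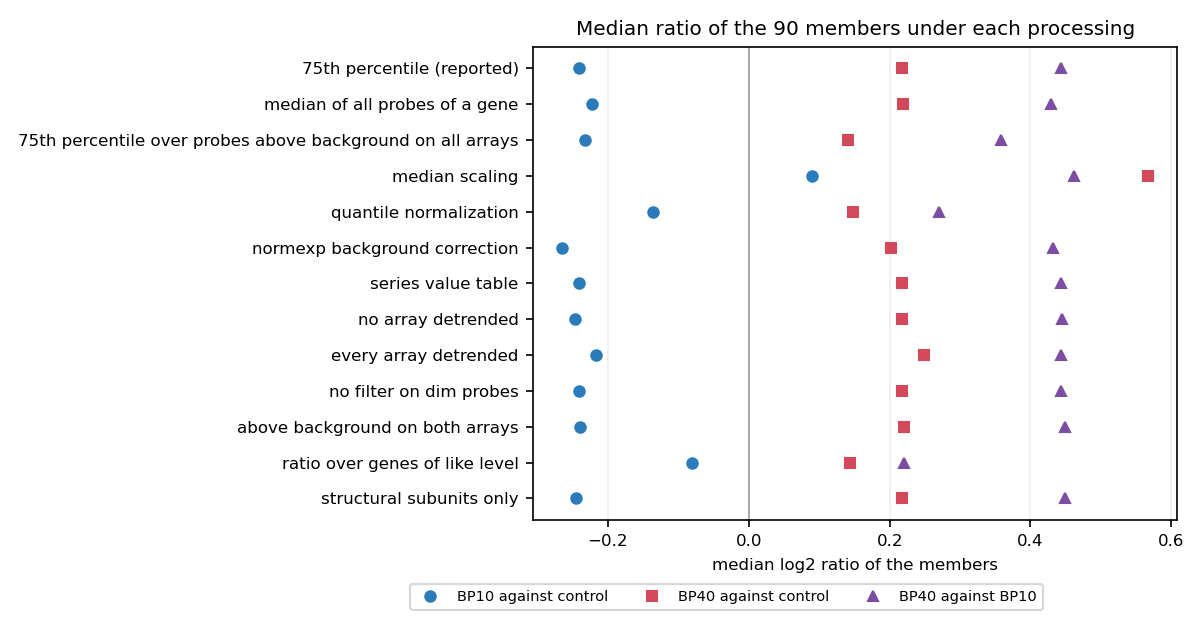
Median log2 ratio of the 90 members (x axis) for the 3 comparisons under each processing (y axis). Every BP40 value lies right of 0, and the BP10 against control value crosses 0 under median scaling only.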

How the data were processed

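The authors labeled total RNA with Cy3 and hybridized each sample to 1 Agilent mouse G3 array. They deposited the Feature Extraction 10.5.1.1 output, whose processed intensity is background-subtracted, on both BP arrays divided by a spatial surface, and not scaled between arrays. The deposited column with that surface, a ratio around 1 per spot fitted by the scanner software, served in alternatives only. The series table, as deposited, repeats these intensity values on every array. No columns of per-sample values were left unmapped (0).

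Processed intensities were taken to log2, the 75th percentile over gene spots was subtracted on each array, spots of a probe were averaged, and of several probes for a gene, one was kept: that flagged as above background on more arrays or, failing that, the brightest. Gene names are those of the BP40 file. The control file names 122 of the 124 member probes. Probe positions are those of the files (mm9) and promoter windows those of RefSeq (GRCm38.p6), and no position was carried between builds. All 90 members matched a RefSeq gene, 4 through an older symbol.

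The members, the gene lists (electron carriers, assembly factors, biogenesis regulators, citric acid cycle, peroxide defence, mitochondrial and cytosolic ribosome, proteasome, and markers of fibroblast, macrophage, muscle, endothelial, epithelial, adipocyte and neural cells) and the motifs were chosen with earlier results of these data known. Named by rule were the 3 genes with the highest and the 3 with the lowest mean ratio to control in complexes I, III, IV and V, all of complex II, every gene called at 2-fold, the isoform families, the brightest gene of each complex, and in related lists the called genes or else both extremes. Other genes named were chosen after their values were seen. The values of 1 member are not reported here.

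Alternatives were the median over a gene's probes, scaling on the median or on probes above background on all arrays, quantile normalization, normexp with an offset of 50, other filters on dim probes, thresholds of 1.5-fold and 3-fold, ratios over genes of like level, the series table and structural subunits only. The normexp correction started from mean spot signals and their background, so it also left out the detrending. Detrending no array or every array was added after seeing the data. Calling was tested on simulated data with known changes larger than the threshold and every gene above background. The filter on dim probes and the bounds were therefore not tested. Python 3.11.15, numpy 2.4.6, pandas 2.3.3, matplotlib 3.10.9 and R 4.3.3 with limma 3.58.1 were used. The number of arrays limits the precision.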

Additional observations from a re-analysis of the deposited data

How the results depend on the processing

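Values were compared with the reported ones by the median SD between probes of a gene, which is a spread of single genes and not the error of a median over many, or by 1.5 times for counts. Of 258 values 36 differed by more. Smaller shifts are not shown to be stable: the member median on BP10 was -0.14 with quantile normalization and -0.081 over genes of like level, that of complex III -0.097 with every array detrended, and that of complex V on BP40 turned to -0.030 over genes of like level and -0.032 with the percentile over probes above background. Median scaling moved the member median on BP10 against control to 0.089 and those of complexes I to V to 0.11, 0.077, 0.089, 0.027 and -0.0020, and on BP40 against control to 0.57 for all members and 0.58, 0.46, 0.62, 0.57 and 0.39 by complex. It also moved the median of all genes, from -0.23 to 0.10 on BP10 and from -0.11 to 0.23 on BP40, so relative to all genes the members lay about where they did before. Quantile normalization moved it to -0.052 and -0.013, and the normexp correction to -0.082 and 0.065. For BP40 against BP10, quantile normalization gave 0.27 for all members and 0.29, 0.17, 0.31, 0.33 and 0.083 by complex, and ratios over genes of like level gave 0.22 and 0.25, 0.15, 0.25, 0.31 and 0.10. Few members were called, so counts moved readily. On BP10 against control 1 was called, in place of 2, with quantile normalization, with the filter on both arrays, over genes of like level and at 3-fold, and 10 at 1.5-fold. On BP40 against control 1 was called, in place of 2, with no array detrended, with the filter on both arrays and over genes of like level, 0 with the normexp correction and at 3-fold, and 7 at 1.5-fold. On BP40 against BP10, 24 were called at 1.5-fold. No paired analysis was possible because the conditions share fewer than 2 replicate numbers. With 1 array per condition, differences between cultures were not measured. A difference of a single gene no larger than the spread between probes, 0.11 to 0.21, could not be told from measurement error. A larger one was not shown to exceed the error between arrays.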
